A study of Mus musculus with 18 samples.

Results

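Interferon-stimulated genes and RNA sensors were followed in cultured mouse brown adipocytes that had received locked nucleic acid (LNA) antisense oligonucleotides. The set was chosen by name and held 40 of the 54347 genes listed in the count table. It was made up of 4 IFIT genes, 3 genes of ISG15 conjugation, 4 transcription factors, 5 OAS genes, 2 Mx GTPases, 3 guanylate-binding proteins, 7 RNA and nucleic acid sensors or their cofactors, 2 genes of the viperin locus, 3 genes of the Parp9-Dtx3l-Parp14 cluster and 7 other interferon-induced genes. The cells were wt1-SAM cells, an immortalised brown preadipocyte line that stably carries the CRISPR activation system SAM, and no group analysed here is described as having received a guide RNA. Mature adipocytes were reverse transfected on day 4 of differentiation with a non-targeting LNA (ctrlA) or with 1 of 2 LNAs against the long noncoding RNA Gm15551 (LNA1, LNA2) and were harvested on day 7. Cells were left unstimulated or received 1 µM isoproterenol, a non-selective β-adrenergic agonist, for the last 24 h. The 3 LNAs and 2 stimulation states gave 6 groups of 3 libraries each, numbered replicates 2, 3 and 4 in every group. Every library came from transfected cells of the same line, differentiated in rosiglitazone, insulin, T3, dexamethasone, indomethacin and IBMX, so no untransfected culture serves as a baseline.

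Type I interferons signal through the receptor subunits IFNAR1 and IFNAR2 and the kinases JAK1 and TYK2, which activate a transcription factor complex that contains STAT2 and IRF9. This complex binds the interferon-stimulated response element in the promoters of many antiviral genes. Double-stranded or 5′-triphosphate RNA in the cytosol is recognised by RIG-I (Ddx58) and MDA5 (Ifih1), RNA in endosomes by receptors such as TLR3, and the signal is passed on through MAVS or TRIF to the factors that switch on interferon genes. Since transfected nucleic acids can be ligands of some of these sensors, the level of their target genes describes one aspect of the state of LNA-treated cells.

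The oligonucleotides that the cells received are shown because they are the agents that set the LNA groups apart. The capitals mark CpG dinucleotides.
ctrlA: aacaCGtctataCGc
LNA1: gatgactgagattaga
LNA2: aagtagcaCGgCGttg
ctrlA is 15 bases long and LNA1 and LNA2 are 16 bases long each. ctrlA and LNA2 each hold 2 CpG dinucleotides and LNA1 holds 0. The site of LNA1 lies at bases 347 to 362 and that of LNA2 at bases 241 to 256 of the 535-base Gm15551 transcript. None of the 192 annotated spliced transcripts of the 40 genes held a site for any of the 3 oligonucleotides, either exact or with up to 2 mismatches. Unspliced transcripts were not searched.

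The promoters were searched for the sequence on which the interferon-activated complex acts. Of the 40 genes, 29 matched an entry in the RefSeq promoter table (GRCm38.p6), which spans 250 bases before to 50 bases after each start. Mx1, Mx2, Ifi27l2a, Ifi27, Parp9, Parp14, Rtp4, Zbp1, Oas2, Dhx58 and Usp18 did not match. The core of the response element, GAAANNGAAA, was searched on both strands (TTTCNNTTTC on the other) and was found in 15 of the 29, or 51.7%, against 3.99% of 27025 genes in the table. Matches can overlap each other, and members were chosen as interferon-stimulated genes, so this share describes the set and was not tested. Windows of 60 bases around the response element are given for 6 genes, with the matches in capitals, to show that the element is present both in a gene with 4137 counts over all libraries (Bst2) and in one with 48 (Rsad2).
Isg15, chr4:156200850-156200909, minus strand: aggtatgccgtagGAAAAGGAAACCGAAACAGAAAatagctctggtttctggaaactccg
Ifit1, chr19:34640779-34640838, plus strand: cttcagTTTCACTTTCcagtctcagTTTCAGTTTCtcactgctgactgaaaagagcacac
Ifit3, chr19:34583382-34583441, plus strand: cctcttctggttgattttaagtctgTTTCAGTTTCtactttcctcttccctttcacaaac
Gbp7, chr3:142530258-142530317, plus strand: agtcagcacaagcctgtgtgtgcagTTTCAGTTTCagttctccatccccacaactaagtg
Bst2, chr8:71537562-71537621, minus strand: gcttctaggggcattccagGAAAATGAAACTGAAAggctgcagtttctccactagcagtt
Rsad2, chr12:26456538-26456597, minus strand: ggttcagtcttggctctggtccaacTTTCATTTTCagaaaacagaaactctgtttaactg
Isg15 shows overlapping matches in a row, whereas the Rsad2 and Gbp7 windows hold a single match each. A match is a run of letters and not a measured binding site.

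The 18 libraries held 9167560 to 19723021 counts, and 14949 genes passed the filter on low counts, 30 of them members. A count of 3, taken as the limit of detection, corresponded to 0.170 to 0.306 CPM, normalised counts scaled to library size, depending on the library. The replicate 2 libraries stood apart, with 7.86 to 9.79% of counts from mitochondrial genes against 2.56 to 4.97% in replicates 3 and 4. CT010467.1, a ribosomal RNA gene, took 2.88 to 14.3% of counts in replicate 2, with 5.8% in unstimulated ctrlA, 14.3% in unstimulated LNA1 and 8.31% in unstimulated LNA2, and 0.285 to 1.04% in the others. Values below are therefore always given in the order replicate 2, 3, 4, and each comparison was fitted without and with the replicate number as an additive term, called the replicate block. Gm15551 itself, the targeted transcript, was near the limit, with 42 counts over the 6 ctrlA libraries, 24 over the LNA1 libraries and 27 over the LNA2 libraries, and never more than 14 counts in a library. At this depth a knockdown could not be read from these counts. The paper itself reports a robust decrease of Gm15551 on day 7 with both LNAs relative to the control LNA. Adipocyte markers were abundant in sum, at 8194 to 22260 CPM over 8 genes, most of it Fabp4 with a mean of 11810 CPM. The brown adipocyte markers Ucp1 and Cidea averaged 6.99 and 12.5 CPM, and Lep had 4 counts in all libraries together. Markers of endothelial cells summed to 1.77 to 3.99 CPM and those of preadipocytes and fibroblasts to 14.9 to 74.7 CPM. In such bulk libraries fewer cells of a type and less RNA per cell cannot be told apart.

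In these brown adipocytes the members were expressed unevenly, both among the interferon-induced genes and among the sensors and their signalling partners. The 40 members together took 391.5 to 622.2 CPM per library. Ifi27, Trim25, Eif2ak2 and Irf1 held 71.2% of all member counts. A mean of at least 10 CPM was reached by 11 members, 13 had between 1 and 10 CPM and 16 had less than 1 CPM. Oas2 (7 counts over 18 libraries) and Mx1 (12 counts) did not exceed 3 counts in any library. Per kilobase of merged exon the highest mean levels were 117.9 CPM for Ifi27, 32.7 for Ifi27l2a, 19.8 for Bst2, 14.6 for Trim25, 10.96 for Ifi35 and 10.4 for Eif2ak2.

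**Figure D1:**
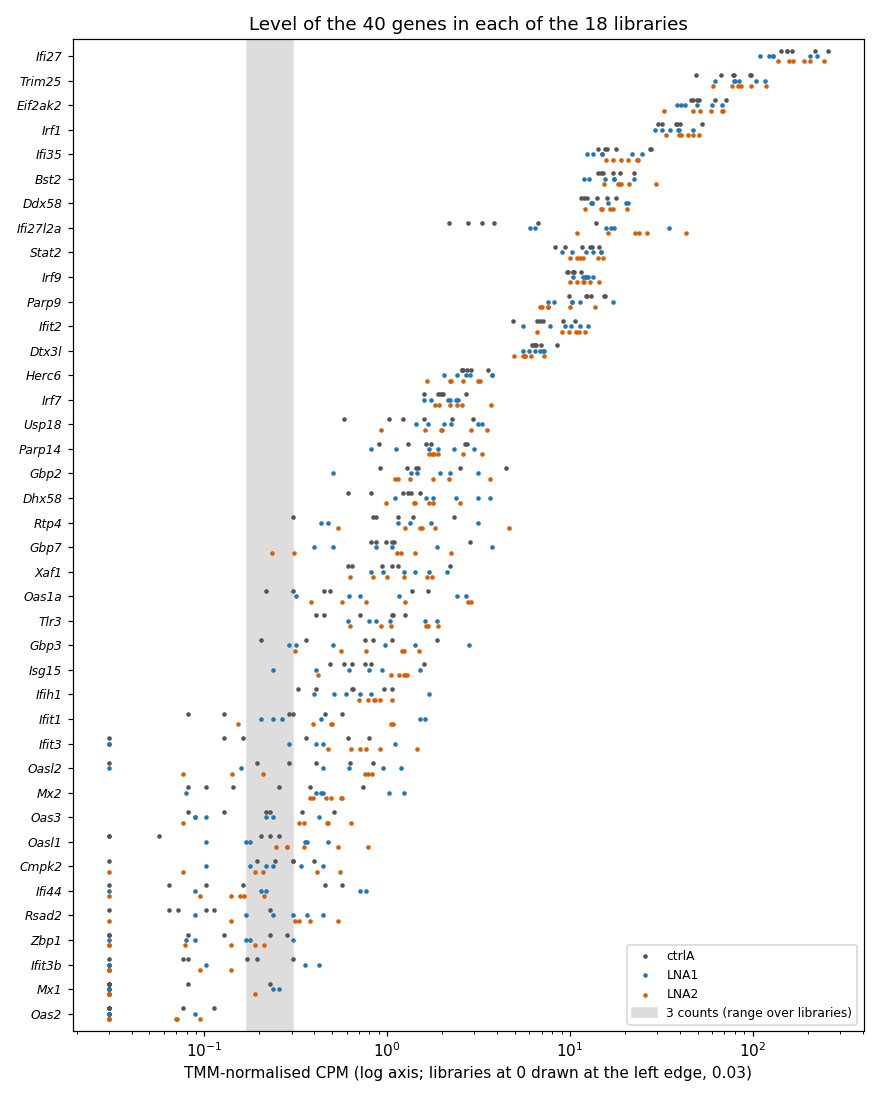
TMM-normalised CPM (log axis) of the 40 genes, ordered by mean level, with 1 point per library coloured by LNA and libraries at 0 drawn at the left edge. The grey band marks 3 counts (0.170 to 0.306 CPM); Ifi27 sits at the top with a mean of 172.9 CPM, and Ifi27l2a shows the ctrlA points to the left of most LNA1 and LNA2 points.

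By role, the sensors covered a wide range. Trim25, a ubiquitin ligase that acts on RIG-I, averaged 84.2 CPM (SD 18.6, n = 18), Eif2ak2, the double-stranded RNA-activated kinase PKR, 52.9 CPM (SD 11.5) and Ddx58 15.4 CPM (SD 3.02). The other RIG-I-like receptors were low, at 1.68 CPM for Dhx58 (LGP2) and 0.774 CPM for Ifih1 (MDA5), and Tlr3 was at 1.09 CPM. Zbp1, a sensor of Z-form nucleic acids, had 28 counts in all and was not tested. The most abundant of the transcription factors was Irf1, at 39.4 CPM (SD 6.88), followed by Stat2 at 12.1, Irf9 at 11.5 and Irf7 at 2.18 CPM. Irf7, the factor that amplifies interferon production and is itself interferon-induced, was thus the lowest of this group.

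Among the IFIT, ISG15 conjugation, OAS, Mx, viperin-locus and guanylate-binding genes, no mean reached 10 CPM, whereas the other interferon-induced genes included the highest member, Ifi27. Ifit2, which binds foreign RNA like other IFIT proteins, averaged 8.99 CPM (SD 2.31), whereas Ifit1 and Ifit3 averaged 0.541 and 0.514 CPM. In ISG15 conjugation, the ubiquitin-like modifier Isg15 averaged 0.876 CPM, its protease Usp18 2.02 CPM and its ligase Herc6 2.74 CPM. Oas1a was the highest of the OAS genes, whose products make 2′-5′-linked oligoadenylates that activate RNase L, with a mean of 1.17 CPM (SD 0.929). Mx2, annotated as a polymorphic pseudogene, had 105 counts over all libraries, and the antiviral radical SAM enzyme viperin (Rsad2) and its neighbour Cmpk2 had 48 and 56. Gbp2 averaged 1.88 CPM and Parp9, an ADP-ribosyltransferase that works with the ubiquitin ligase Dtx3l, 10.9 CPM.

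Ligands of the pathway were at or near 0. Ifnb1, Ifna2, Ifna4, Ifnl2 and Ifnl3 had 0 counts in all 18 libraries, Ifne had 1, Ifng 3 and Ifnk 18. A count of 0 in a library allows up to 3 counts, that is 0.170 to 0.306 CPM. Receptors and transducers were well measured by contrast: Ifnar1 averaged 63.3 CPM, Ifnar2 27.0, Ifngr1 135.6, Jak1 113.3, Tyk2 19.95 and Mavs 76.7. Tlr7 and Tlr9, endosomal receptors for single-stranded RNA and CpG DNA, had 53 and 16 counts in total.

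The first question was whether either LNA against Gm15551 moved these genes relative to ctrlA. Calls required both an adjusted p under 0.05 and a log2 fold change over 0.5 in size (edgeR quasi-likelihood test, Benjamini-Hochberg adjustment over 14949 genes). Averaged over stimulation, LNA1 gave 0 calls among the 30 tested members without the replicate block, where 0.442% of all tested genes were called, and 2 calls, Ifi27l2a and Dhx58, with it, where 2.43% were. An unadjusted p under 0.05 was reached by 3 members for LNA1 without the block, and DESeq2 called 1 (Ifi27l2a). Here and below, counts by unadjusted p and DESeq2 calls are given without the share of all genes. They are therefore not set against a background. For LNA2 the number of edgeR calls was 1, Ifi27l2a, without the block against 1.42% of all genes. With the block it was 3, Ifi27l2a, Oas1a and Parp9, against 5.53%. Between the targeting LNAs, LNA2 against LNA1 gave 0 calls without the block (0.923% of all genes), with 1 member under an unadjusted p of 0.05 and 0 calls by DESeq2, and 1 call, Ifi27l2a, with it (4.11%). LNA1 and LNA2 share the same ctrlA libraries, so their comparisons are not independent.

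Most members moved little. The median log2 fold change of the 30 members was 0.13 for LNA1 and 0.20 for LNA2, against -0.02 for all tested genes in both comparisons. Values were positive for 20 of 30 members with LNA1 and for 24 of 30 with LNA2. For 17 of the 30 the 95% interval stayed within a 2-fold change in either direction, for LNA1 and for LNA2 alike. The other members have intervals that reach beyond 2-fold. Without the block, examples are Ifit1 with LNA1 (log2 1.18, interval -0.10 to 2.46) and Ifit3 with LNA2 (log2 1.25, interval -0.10 to 2.60).

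**Figure D2:**
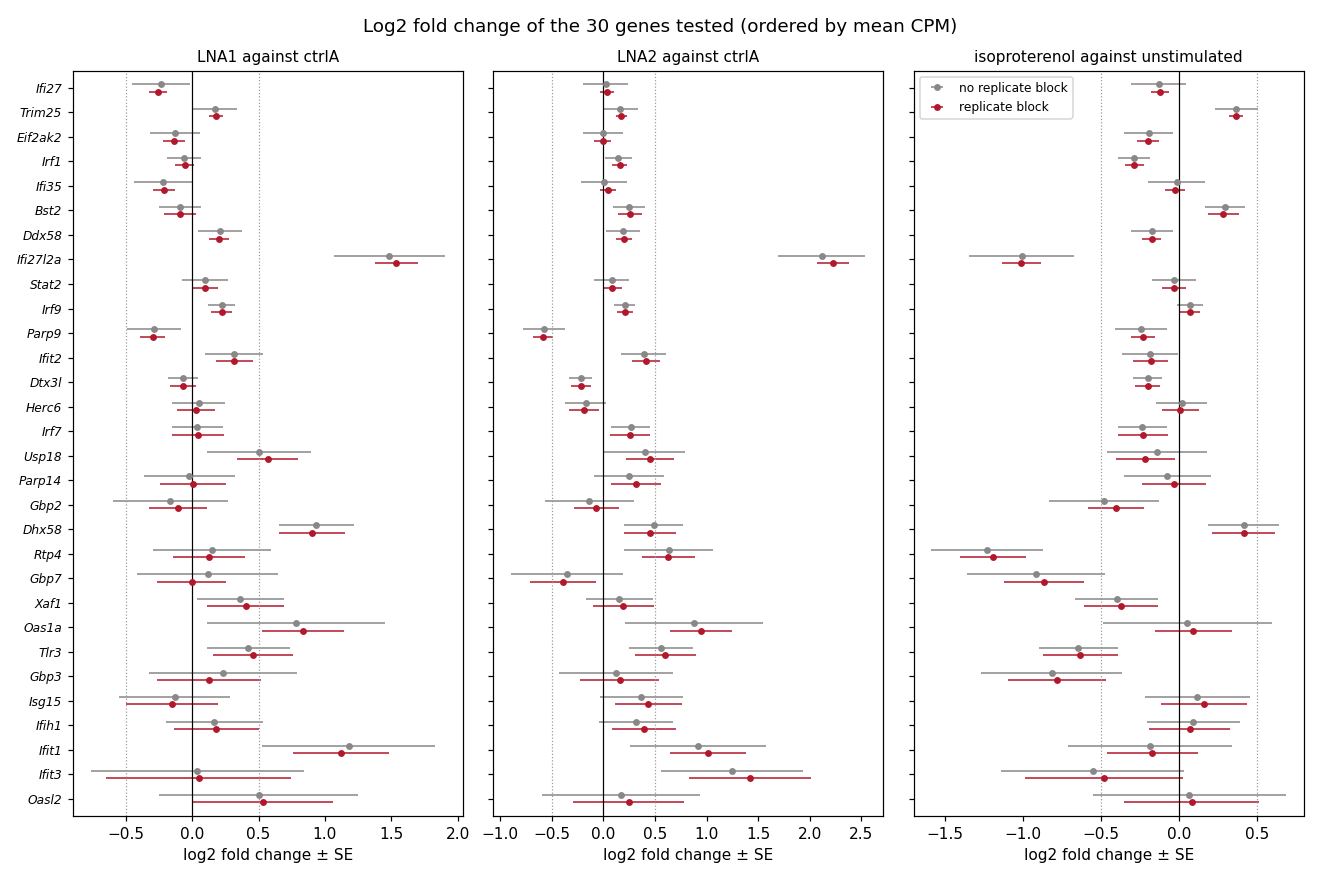
Log2 fold change with its standard error for the 30 members tested, in 3 comparisons averaged over the other factor, without (grey) and with (red) the replicate block. Ifi27l2a lies apart on the right for LNA1 (1.48 without the block) and LNA2 (2.12), and Rtp4 lies lowest for isoproterenol (-1.23); dotted lines mark a log2 change of 0.5 in either direction.

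Ifi27l2a was the member that differed most between the LNAs. It encodes a small hydrophobic interferon-inducible protein and lies at chr12:103442167-103443680 on the minus strand, next to Ifi27 at chr12:103434211-103440239 on the plus strand (GENCODE M21, GRCm38). Its level in unstimulated cells was 13.8, 3.32 and 3.83 CPM with ctrlA, 34.9, 17.5 and 16.7 CPM with LNA1, and 43.0, 22.8 and 26.3 CPM with LNA2. In stimulated cells it was 6.69, 2.19 and 2.76 CPM with ctrlA, 15.7, 6.40 and 6.04 CPM with LNA1, and 23.8, 16.1 and 10.9 CPM with LNA2. In both states the order was ctrlA, LNA1, LNA2 within every replicate number. The LNA2 libraries did not overlap those of ctrlA in either state, which held for 3.48% of all tested genes, while the stimulated LNA1 libraries overlapped those of ctrlA.

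**Figure D3:**
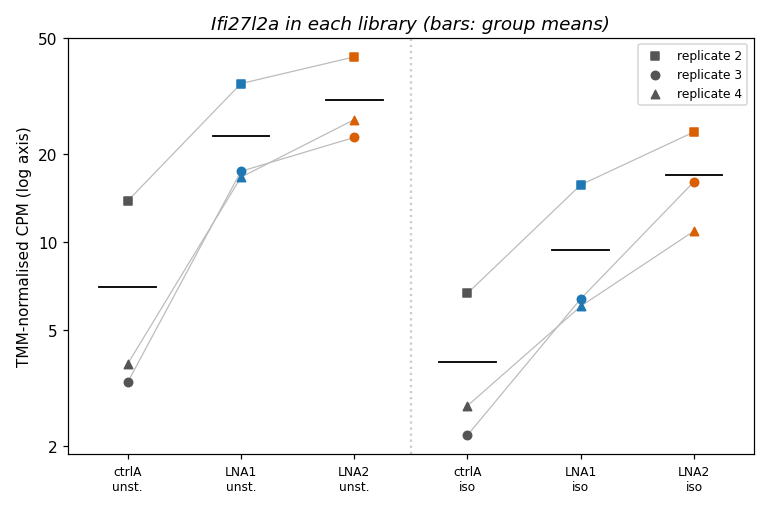
Ifi27l2a in TMM-normalised CPM (log axis) for the 6 groups, with unstimulated groups on the left (unst.) and isoproterenol (iso) on the right, 1 symbol per replicate number, grey lines joining libraries of the same number and bars at the group means. The level climbs from ctrlA to LNA1 to LNA2 in every replicate, from a mean of 7.00 to 30.7 CPM in unstimulated cells and from 3.88 to 16.9 CPM with isoproterenol.

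The LNA2 library was 3.11, 6.87 and 6.85 times that of ctrlA in unstimulated cells and 3.56, 7.37 and 3.96 times in stimulated cells. For LNA1 the ratios were 2.52, 5.27 and 4.35, and 2.35, 2.93 and 2.19. The fitted log2 fold change was 2.12 (SE 0.42) for LNA2, with an adjusted p of 0.0176 (edgeR) without the block and 1.13e-06 with it, and the level was higher in 6 of 6 pairs. For LNA1 it was 1.48 (SE 0.42), with an adjusted p of 0.236 without the block and 3.96e-05 with it, again higher in 6 of 6 pairs. LNA2 exceeded LNA1 by 0.63 on the log2 scale (SE 0.40) in 6 of 6 pairs, with an adjusted p of 0.783 without the block and 0.00352 with it (edgeR). The change did not depend on 1 library when the block was fitted, since each of the 18 fits that left out a library kept the LNA2 call. Without the block the call was lost in 4 of 18, those that left out ctrlA replicate 3 or 4 in either state, with an adjusted p of up to 0.0625.

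Within a stimulation state the members called were few. LNA1 gave 0 calls in unstimulated and 0 in stimulated cells without the block, where 0% and 0.0134% of all genes were called, and Ifi27l2a alone with the block, where 0.602% and 1.45% were. An unadjusted p under 0.05 was reached by 1 member in each state, and DESeq2 called 0 in each. LNA2 likewise gave 0 calls in either state without the block, against 0.194% and 0.207% of all genes, and 2 in each state with it, Ifi27l2a and Parp9, against 2.79% and 5.51%. There 1 member in unstimulated and 2 in stimulated cells had an unadjusted p under 0.05, and DESeq2 called 0 and 1. No LNA1 comparison of a member had libraries that were separate in both states, against 2.18% of all genes.

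Ifi27, the neighbour of Ifi27l2a and the most abundant member, did not follow it. Its level in unstimulated cells was 256.6, 163.2 and 153.3 CPM with ctrlA, 225.1, 129.6 and 128.4 with LNA1 and 244.7, 166.9 and 157.6 with LNA2. The log2 fold change was -0.24 (SE 0.22) for LNA1, lower in 6 of 6 pairs but under the size limit (adjusted p 1 without the block and 0.0337 with it, edgeR), and 0.02 (SE 0.22) for LNA2.

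Some markers of other cell types also differed between the LNAs, and not all of them followed the order of Ifi27l2a. For macrophages and blood cells the summed level of 8 such genes was 8.34 to 13.1 CPM in unstimulated ctrlA, 11.98 to 15.7 in LNA1 and 14.1 to 28.8 in LNA2 libraries, and 12.5 to 24.9, 19.6 to 30.3 and 26.2 to 44.7 CPM in the stimulated ones. Nearly all of it was Cd68, a lysosomal protein, whose mean went from 9.56 to 18.7 CPM between unstimulated ctrlA and LNA2, and which was higher with isoproterenol (log2 0.90, adjusted p 0.00618 without the block, edgeR) where Ifi27l2a was lower. For LNA2 against ctrlA the log2 change of Cd68 was 0.88 (adjusted p 0.0570 without the block and 7.745e-05 with it). Csf1r, the receptor of the macrophage growth factor M-CSF, had 144 counts in all and a log2 change of 1.73 for LNA2 against ctrlA (adjusted p 0.138 without the block and 0.00677 with it) and of 2.15 for LNA2 against LNA1 (adjusted p 0.0967 without the block, and 0.00496 with it for a log2 change of 2.06). For LNA1 against ctrlA the log2 change of Csf1r was -0.42 (SE 0.61) without the block, and it was not called in either fit. The defining markers Ptprc, Adgre1 and Cd3e had 12, 4 and 4 counts over all 18 libraries, and 4 of the 8 genes stayed at or under 3 counts in every library. Among the 4 markers of preadipocytes and fibroblasts, Pdgfra was called higher in both fits with LNA1 (log2 0.89, adjusted p 0.00743 without the block, edgeR) and with LNA2 (0.71, adjusted p 0.0121). Ly6a was called higher with LNA2 in the blocked fit (log2 0.66, adjusted p 0.00549, edgeR) and not without the block. Cd34 had the opposite sign, with a log2 change of -0.34 (SE 0.32) for LNA1 and -0.67 (SE 0.33) for LNA2 without the block. It was not called in either fit. Dlk1 had 79 counts and was not tested. Among the adipocyte markers, Retn was called higher with LNA2 in the blocked fit (log2 0.55, adjusted p 9.02e-05, edgeR) and not without the block. The other adipocyte markers tested were not called for either LNA. The part of all these markers in the level of Ifi27l2a was not tested.

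Among the RNA sensors, Dhx58 was called for LNA1 with the block but not without it over all 18 libraries. LGP2, its product, binds double-stranded RNA and modulates RIG-I and MDA5. It was at 1.30, 1.23 and 0.816 CPM in unstimulated ctrlA and 1.10, 2.40 and 1.63 CPM in unstimulated LNA1 cells, and at 1.52, 1.35 and 0.613 CPM in stimulated ctrlA and 1.78, 3.13 and 3.65 CPM in stimulated LNA1 cells. The groups overlapped in unstimulated cells and were separate in stimulated ones, and LNA1 was higher in 5 of 6 pairs. The log2 fold change was 0.93 (SE 0.28), with an adjusted p of 0.285 without the block and 0.0375 with it (edgeR). The gene had 388 counts in all, its call with the block held in 10 of the 18 fits that left out a library, and its exons overlap those of Dhx58os on the opposite strand, whose reads could not be told apart without strand information. With LNA2 the log2 fold change was 0.49 (SE 0.28), with an adjusted p of 0.652 without and 0.223 with the block.

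The abundant sensors changed by much less. Ddx58 moved by 0.21 (SE 0.17) on the log2 scale with LNA1 and 0.19 (SE 0.16) with LNA2, Eif2ak2 by -0.13 (SE 0.19) and -0.00 (SE 0.19), and Trim25 by 0.17 (SE 0.17) in both. Trim25 was higher in 6 of 6 pairs for each LNA, and with the block its adjusted p was 0.0354 for LNA2 (edgeR), but the change was under the size limit. Ifih1 had 0.17 (SE 0.37) and 0.32 (SE 0.36), and Tlr3 had 0.42 (SE 0.32) and 0.56 (SE 0.31), none of which passed the test in either fit.

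Oas1a was called for LNA2 with the block alone. Its level was 1.36, 0.216 and 0.489 CPM in unstimulated ctrlA against 2.89, 0.567 and 0.770 CPM in unstimulated LNA2 cells, and 1.67, 0.450 and 0.306 against 2.75, 1.26 and 0.384 CPM in stimulated cells. The replicate 2 libraries were highest in every group, and groups overlapped in both states. The log2 fold change was 0.88 (SE 0.67), higher in 6 of 6 pairs, with an adjusted p of 0.798 without the block and 0.0373 with it (edgeR). With 262 counts over 18 libraries the call held in 9 of the 18 blocked fits that left out a library. LNA1 was also higher in 6 of 6 pairs (log2 0.78, SE 0.67), with an adjusted p of 1 without and 0.114 with the block.

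None of the IFIT genes was called. Ifit2, the only one with over 3 counts in every library, was at 10.7, 7.14 and 6.61 CPM in unstimulated ctrlA, 12.6, 10.1 and 7.73 in LNA1 and 12.1, 9.07 and 9.88 CPM in LNA2 cells, so the LNA groups overlapped ctrlA. In stimulated cells it was 9.195, 6.88 and 4.90 CPM, 11.4, 9.38 and 5.56 CPM, and 11.2, 6.60 and 10.8 CPM. The log2 fold change was 0.32 (SE 0.22) with LNA1 and 0.39 (SE 0.22) with LNA2, and only the latter had an adjusted p under 0.05 with the block (0.0439, edgeR). Ifit1 and Ifit3 rested on 121 counts each over 18 libraries.

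ISG15 conjugation and the transcription factors gave no calls for either LNA. Herc6, the highest of the conjugation genes, changed by 0.05 (SE 0.20) and -0.17 (SE 0.20) on the log2 scale, Usp18 by 0.50 (SE 0.39) and 0.40 (SE 0.39), and Isg15 by -0.13 (SE 0.42) and 0.37 (SE 0.40). The factors were the tightest group: the largest change among Irf1, Irf7, Irf9 and Stat2 was 0.26 (SE 0.19), for Irf7 with LNA2. Irf9, the DNA-binding part of the interferon-activated complex, was higher with LNA1 in 6 of 6 pairs by 0.22 (SE 0.10), with an adjusted p of 0.804 without the block and 0.113 with it. Irf9 shares exon sequence on the same strand with Rnf31, so its count depends on how reads were divided between them.

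Parp9 was called lower with LNA2 when the block was fitted, in the averaged comparison as in each state, and not without it over all 18 libraries. It was at 15.5, 12.3 and 12.2 CPM in unstimulated ctrlA, 17.2, 10.2 and 10.3 CPM in LNA1 and 13.6, 7.58 and 6.86 CPM in LNA2 cells. In stimulated cells it was at 15.4, 9.91 and 13.0 CPM with ctrlA, 11.4, 8.22 and 7.63 CPM with LNA1 and 10.1, 7.63 and 7.00 CPM with LNA2. LNA2 was below ctrlA in 6 of 6 pairs although the groups overlapped, the LNA2 library of replicate 2 lying above the lowest ctrlA libraries. The log2 fold change was -0.58 (SE 0.20), with an adjusted p of 0.251 without the block and 0.000483 with it (edgeR), and the blocked call held in all 18 fits that left out a library. Dtx3l, whose exons overlap those of Parp9 on the opposite strand and whose product works with Parp9, changed by -0.22 (SE 0.11) and was lower in 6 of 6 pairs, with an adjusted p of 0.536 without and 0.132 with the block. Parp14 changed by 0.25 (SE 0.34).

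The second question was the response to isoproterenol, averaged over the 3 LNAs. Without the block 0 of 30 members were called, against 3.2% of all genes, and with it 3 were, Ifi27l2a, Rtp4 and Gbp7, all lower, against 7% of all genes. Without the block an unadjusted p under 0.05 was reached by 7 members (2 higher and 5 lower). DESeq2 called 2, Rtp4 and Oasl1, the latter left out by the filter in edgeR. The share of all genes is not given for either count, so neither is read as a result about the set. The median log2 change of the members was -0.18, with 9 of 30 positive, against -0.00 for all genes. Markers of preadipocytes and fibroblasts summed to 14.9 to 39.4 CPM in the unstimulated and 25.2 to 74.7 CPM in the stimulated libraries. Of these genes Ly6a was called higher (log2 1.58, adjusted p 0.0416 without the block, edgeR), while Pdgfra was at -0.03 (SE 0.11) and Cd34 at -0.18 (SE 0.27). Adipocyte markers also changed. In both fits Adipoq was called lower, at -0.71 without the block, and Cidea and Ucp1 higher, at 1.27 and 3.51. Pparg, Fabp4, Plin1 and Retn were not called. The part of these markers in the changes of the members was not tested.

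Rtp4, an interferon-induced chaperone of G protein-coupled receptors, had the lowest log2 change of the 30 members, and was called with the block and by DESeq2 but not in edgeR without the block over all 18 libraries. It went from 2.33, 0.866 and 1.39 CPM to 1.14, 0.836 and 0.306 CPM with ctrlA, from 3.14, 1.15 and 1.73 to 1.33, 0.436 and 0.477 CPM with LNA1, and from 4.63, 1.56 and 1.82 to 1.52, 1.26 and 0.538 CPM with LNA2. The stimulated library was lower in 9 of 9 pairs, with the least change in ctrlA replicate 3. The log2 change was -1.23 (SE 0.36), with an adjusted p of 0.0683 without the block and 0.000514 with it (edgeR quasi-likelihood test), on 338 counts in all. Rtp4 shares exon sequence on the same strand with Gm45338.

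Ifi27l2a was lower with isoproterenol in 9 of 9 pairs. The stimulated library held 0.483, 0.659 and 0.719 of the unstimulated level with ctrlA, 0.450, 0.366 and 0.362 with LNA1 and 0.554, 0.706 and 0.416 with LNA2. The log2 change was -1.01 (SE 0.34), with an adjusted p of 0.118 without the block and 1.51e-05 with it (edgeR).

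Gbp7, an interferon-induced GTPase, went from 2.84, 0.866 and 1.06 CPM to 0.988, 1.09 and 0.817 CPM with ctrlA, from 3.73, 1.06 and 0.509 to 1.86, 0.873 and 0.397 CPM with LNA1 and from 2.23, 1.13 and 1.19 to 1.42, 0.236 and 0.307 CPM with LNA2. In 8 of 9 pairs the stimulated library was the lower one, yet stimulated and unstimulated groups overlapped with each of the 3 LNAs. The log2 change was -0.92 (SE 0.44), with an adjusted p of 0.353 without the block and 0.0199 with it (edgeR), and the blocked call was lost without unstimulated LNA1 replicate 2 (adjusted p 0.0792). Gbp3 and Gbp2 had log2 changes of -0.81 (SE 0.45) and -0.48 (SE 0.35) and were not called. Gbp7 shares exon sequence on the same strand with Gm43802.

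Trim25 was higher with isoproterenol in 9 of 9 pairs. It went from 49.0, 77.5 and 78.6 CPM to 67.2, 96.4 and 98.1 CPM with ctrlA, from 62.1, 79.6 and 84.5 to 79.0, 117.0 and 103.8 CPM with LNA1 and from 61.0, 83.1 and 86.0 to 76.7, 118.4 and 98.2 CPM with LNA2. The replicate 2 libraries were lowest in every group. The log2 change was 0.37 (SE 0.14), with an adjusted p of 0.17 without the block and 1.26e-05 with it (edgeR), below the size limit for a call. Irf1 had the opposite sign, at -0.29 (SE 0.11), with an adjusted p of 0.167 without the block and 0.00222 with it. Bst2, the membrane tether of budding virions, had a log2 change of 0.29 (SE 0.13), with an adjusted p of 0.0390 with the block.

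**Figure D4:**
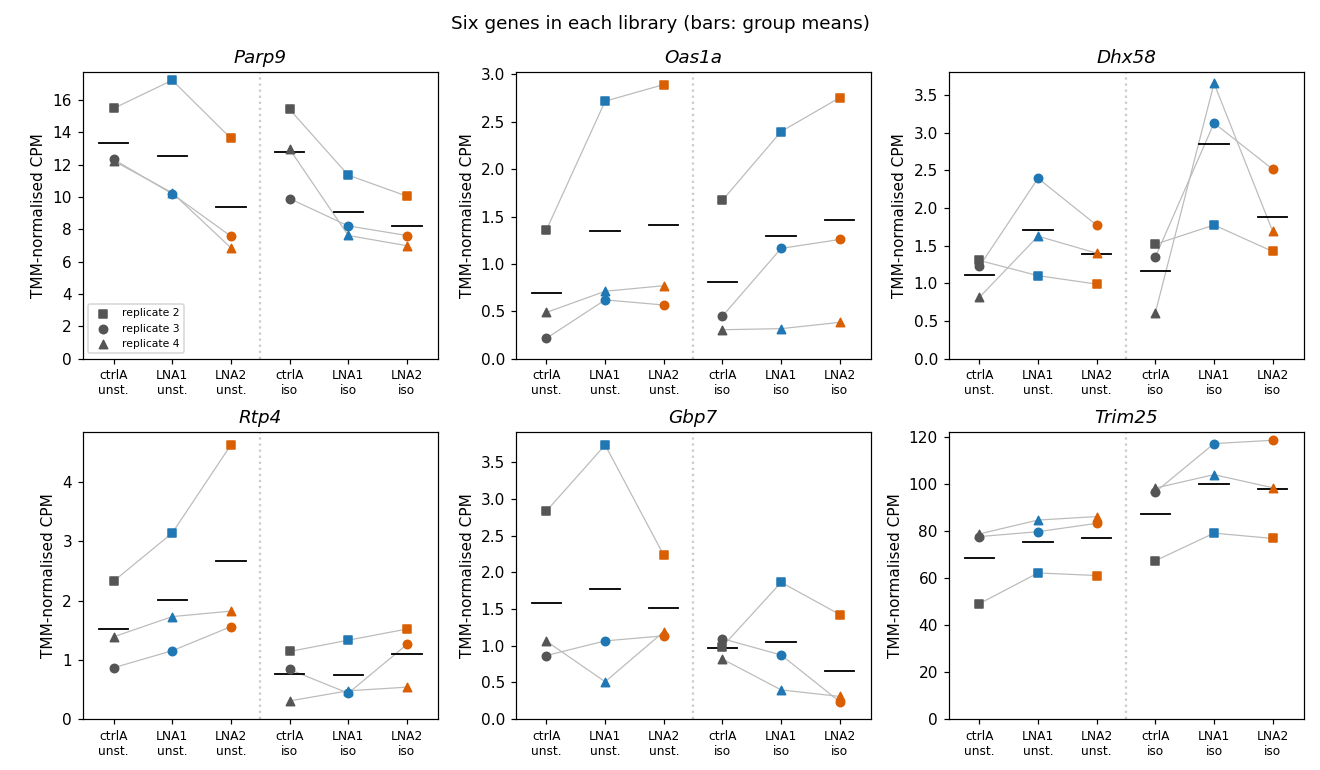
Parp9, Oas1a, Dhx58, Rtp4, Gbp7 and Trim25 in TMM-normalised CPM (axes from 0) for the 6 groups, with unstimulated groups (unst.) left of the dotted line and isoproterenol (iso) right of it, 1 symbol per replicate number, grey lines joining libraries of the same number and bars at the group means. Replicate 2 (squares) is highest for Oas1a in every group and lowest for Trim25; Parp9 is lower with LNA2 than with ctrlA in 6 of 6 pairs, and Rtp4 is lower with isoproterenol in 9 of 9.

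No member was called for a different response to isoproterenol with LNA1 or LNA2 than with ctrlA. The interaction gave 0 calls among members in both fits, as it did among all genes (0%), and 0 members had an unadjusted p under 0.05 (edgeR). DESeq2 also called 0. For Ifi27l2a the interaction was -0.44 on the log2 scale (interval -2.06 to 1.19) with LNA1 and 0.01 (interval -1.29 to 1.30) with LNA2, without the block. With the block it was -0.51 (interval -1.15 to 0.13) and -0.04 (interval -0.68 to 0.59), and only the interval for LNA1 reached a 2-fold difference, on its lower side. Without the block both intervals reached a 2-fold difference in either direction. When all 6 groups were tested jointly, with a limit of 0.001 on the adjusted p, 0 members were called without the block (0.455% of all genes), with 3 under an unadjusted p of 0.05 and Ifi27l2a called by DESeq2, and 2 with it, Ifi27l2a and Trim25 (8.93%).

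Several members differed by replicate number, a smaller share than among all tested genes. Libraries of replicate 2 did not overlap those of replicates 3 and 4 for 7 of the 30 members, against 34.5% of all tested genes: Ifi27, Ifi35, Eif2ak2, Gbp2, Usp18 and Oas1a were higher and Stat2 was lower in replicate 2. Eif2ak2, for example, ranged from 59.9 to 71.2 CPM in replicate 2 and from 32.8 to 59.2 CPM in the others. The higher share of mitochondrial genes and of CT010467.1 in the replicate 2 libraries moved with these levels, and its part in them was not tested. Without replicate 2, the fit on 12 libraries called Ifi27l2a for LNA1, LNA2, LNA2 against LNA1 and isoproterenol, Dhx58 for LNA1, Parp9 for LNA2 and Rtp4 for isoproterenol, and called neither Oas1a nor Gbp7. The share of all genes called in that fit is not given here, so these calls are not set against a background.

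Of 62 other genes of the interferon pathway, 43 were tested, and for LNA1 0 were called in either fit, against 0.442% of all genes without and 2.43% with the block, 2 of them having an unadjusted p under 0.05 without it (edgeR). For LNA2 0 were called without the block (1.42% of all genes), 8 having an unadjusted p under 0.05, and 4 with it, 3 higher and 1 lower (5.53% of all genes). Tmem173, the adaptor STING of cytosolic DNA sensing, had a mean of 1.29 ± 0.64 CPM in unstimulated ctrlA and 1.92 ± 0.10 in LNA2 cells, and of 1.64 ± 0.56 and 3.41 ± 0.99 CPM after isoproterenol (SD, n = 3), with a blocked log2 change of 0.86 (adjusted p 0.00584, edgeR). Ifitm3, a membrane protein that restricts viral entry, changed by 0.59 (adjusted p 0.0339), Lgals3bp, a secreted glycoprotein, by 0.53 (adjusted p 0.000856) and Samd9l by -0.51 (adjusted p 0.0272) in that fit. Jak1 was lower with LNA2, but under the size limit for a call. Its log2 change was -0.44 (SE 0.08) without the block, with an adjusted p of 0.00808 without and 5.35e-05 with the block (edgeR). Against LNA1 it was -0.39 (adjusted p 0.0214 without the block).

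For isoproterenol 1 of the 43 was called without the block, where 3.2% of all genes were, and 3 with it, where 7% of all genes were, so the share called was not above that of all genes. Ifngr1, the ligand-binding chain of the interferon-γ receptor, fell from 173.8 ± 13.6 to 110.8 ± 6.52 CPM with ctrlA, from 171.9 ± 14.6 to 102.4 ± 6.40 CPM with LNA1 and from 156.7 ± 11.5 to 98.1 ± 6.58 CPM with LNA2 (SD, n = 3), and the stimulated and unstimulated libraries did not overlap. Its log2 change was -0.69 (SE 0.07), with an adjusted p of 1.77e-05 without the block (edgeR). Ifitm3 was higher by 0.56 and Samd9l fell by 0.64 on the log2 scale, both with the block.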

How the data were processed

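RNA-seq libraries (NEBNext Ultra II RNA kit, paired-end, polyA RNA) of 18 samples were analysed. Expected counts per gene were deposited by the authors, who per the labels used bcl2fastq, cutadapt and Salmon on GRCm38, with gene annotation Gencode M22 according to the study's methods. The deposited values were whole numbers and were used as they stood. Groups and replicate numbers were taken from the sample labels. The sources used here do not state strand settings or how Salmon estimates were summed per gene, so overlapping genes may share reads.

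Genes were filtered with filterByExpr (minimum count 10, minimum total 15), normalised by TMM and fitted with edgeR 4.0.16 (R 4.3.3), quasi-likelihood test, 1 term per group over all 18 libraries, Benjamini-Hochberg adjustment. CPM are TMM-normalised, and each standard error refers to the fitted log2 fold change it is printed with. Intervals called 95% are the estimate ± 1.96 SE, without allowance for the few libraries. They are therefore narrower than the edgeR test implies. For Irf9 with LNA1 in unstimulated cells, fitted with the block, the interval was 0.0055 to 0.458 at an unadjusted p of 0.0621 (edgeR). That interval excluded no change where the test did not. Of the 40 members 10 did not pass the filter: Ifit3b, Oas2, Oas3, Oasl1, Mx1, Mx2, Zbp1, Rsad2, Cmpk2 and Ifi44 (7 to 105 counts over all libraries). DESeq2 1.42.0 was an alternative, as were other normalisation, no filter, the replicate block, leaving out each library, and leaving out replicate 2. A further 3 alternatives, which combine the block with DESeq2, with replicates 3 and 4 alone, or with leave-one-out, were chosen after seeing the data. The procedure was tested on simulated counts.

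Deviations from group means correlated positively between libraries with the same replicate number in all 45 pairs (r 0.24 to 0.722). In 90 pairs of other numbers r was -0.596 to 0.404, so the ranges overlapped. Deviations cancel within each group by construction, so the lower values between other numbers are not separate evidence of pairing. The correlations were not split by number, and libraries of any number standing apart could also give positive values. Whether each number pairs its samples is therefore not shown. The labels do not say what a number stands for, nor that replicates were separate cultures, so p-values measure the spread between these samples. No pair among 18 pairs of replicates of a group held identical or near-identical counts (chi-square per degree of freedom 3.07 to 107). The members, pathway genes and markers were chosen with earlier results of these data known. All 40 members were accounted for; values were given for each member called in an averaged comparison with or without the block and for the highest member of each role. Intervals and detection limits cover counting error and the spread between libraries only, since reads carry no molecular identifiers. Coordinates and exon overlaps are from GENCODE M21.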

Additional observations from a re-analysis of the deposited data

How the results depend on the processing

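Counts of members called changed mainly with the replicate block and with replicate 2. In the order joint test, LNA1, LNA2, LNA2 against LNA1 and isoproterenol (each averaged over the other factor), the counts were 0, 0, 1, 0 and 0 as reported, 2, 2, 3, 1 and 3 with the replicate block, 1, 2, 2, 1 and 2 in the 12 libraries of replicates 3 and 4 without the block, and the same 1, 2, 2, 1 and 2 with it. With the replicate block in DESeq2 they were 4, 2, 2, 1 and 3. DESeq2 without the block gave 1, 1, 1, 0 and 2, and testing without a filter on low counts gave 0, 0, 1, 0 and 1. DESeq2 size factors in edgeR left all of these counts as reported. In single states the counts were 0 as reported, and for LNA1 they were 1 unstimulated and 1 stimulated in each fit with the block or without replicate 2. For LNA2 unstimulated they were 2 with the replicate block, 1 in replicates 3 and 4, 2 with both and 2 with the block in DESeq2, and for LNA2 stimulated they were 2, 1, 1 and 2, with 1 in DESeq2 without the block. The interaction counts were 0 in all of these fits. No log2 change of a called member changed direction. The cause of these differences was not tested. Shares of all genes called are given above only for the edgeR fits on 18 libraries without and with the block. The counts of the other fits are therefore not set against a background.

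Leaving out 1 library at a time, without the block, gave 0 to 1 members for LNA1, 0 to 1 for LNA2 and 0 to 1 for isoproterenol, and 0 for the other comparisons. Ifi27l2a was called for LNA1 without unstimulated ctrlA replicate 2, it was lost for LNA2 without unstimulated or stimulated ctrlA replicate 3 or 4, and Rtp4 was called for isoproterenol without stimulated LNA1 replicate 2. With the block, leaving out a library kept the call of Ifi27l2a, Parp9 (LNA2) and Rtp4 (isoproterenol) in 18 of 18 fits, of Gbp7 in 17, of Dhx58 in 10 and of Oas1a in 9, all in the averaged comparisons. In single states Ifi27l2a with stimulated LNA1 kept it in 15, and Parp9 with LNA2 in 14 unstimulated and 17 stimulated fits. Depth limits what can be said of the 16 members under 1 CPM.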

Other observations

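Among the members that the filter on low counts left out, Oasl1 and Rsad2 had more counts with either LNA than with ctrlA and more with isoproterenol than without. These 2 genes were picked after their values were seen, and the filtered fit in edgeR does not test them. Without the filter edgeR called neither, and DESeq2 called Oasl1 for isoproterenol. Oasl1, a catalytically inactive relative of the OAS enzymes, had 1 count over 3 libraries of unstimulated ctrlA, 5 with LNA1 and 12 with LNA2, and 9, 15 and 20 counts in the stimulated groups. In CPM it was higher with each LNA in 6 of 6 pairs and with isoproterenol in 9 of 9 pairs, and 10 of 18 libraries were at or under 3 counts. Rsad2 had 3, 6 and 6 counts in the unstimulated and 5, 13 and 15 counts in the stimulated groups. Ifi44, by contrast, had 20 counts over the 6 ctrlA, 23 over the LNA1 and 10 over the LNA2 libraries, and Zbp1 had 11, 9 and 8.

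Replicate 2 held most of the reads of several low members. Of the 121 counts of Ifit1, 76 came from the 6 libraries of replicate 2, 27 from replicate 3 and 18 from replicate 4. For Oas1a the numbers were 169, 57 and 36, and for Ifi44 36, 10 and 7, whereas Oasl1 had 16, 25 and 21. Summed over the 10 members not tested, the level was 1.98 to 3.73 CPM in the replicate 2 libraries, 0.433 to 2.75 in replicate 3 and 0.816 to 2.10 in replicate 4.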
